A study of Arabidopsis thaliana with 12 samples.

Results

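Z-ISO (AT1G10830), AT1G74470 and SIRB (AT1G50170) are nuclear genes of Arabidopsis thaliana for plastid enzymes of carotenoid, chlorophyll and sirohaem synthesis. They were taken by locus, through array probes whose annotation names exactly 1 gene, and are 3 of 690 loci identified in this way. Each had 1 probe among the 3439 of the table. All plants were wild type of the ecotype Wassilevskija. In 6 samples (water replicates 1 to 6) they had received water, for a time the labels do not give, and in 6 samples (sucrose replicates 1 to 6) they had spent 30 min in MS, a plant salt medium, with 60 mM sucrose. The medium salts and the sucrose were given together, so their effects cannot be told apart. Total RNA was measured on arrays, as 1 intensity per probe and sample on a scale from 0 to 100. The labels give no tissue, age or growth conditions, and 0 of 16 tissue marker genes examined were on a probe that names 1 gene, so the tissue could not be checked. Whether the samples within a group are separate plants or cultures is not stated either, so a p-value here measures the spread among these arrays and that spread may be technical.

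Carotenoids and the side chain of chlorophyll share a precursor, geranylgeranyl diphosphate, which plastids make by their own isoprenoid pathway. Z-ISO is the isomerase that acts on zeta-carotene, between the desaturation steps on the way from phytoene to lycopene. AT1G74470 encodes geranylgeranyl reductase, which reduces the geranylgeranyl chain to the phytyl chain used in chlorophyll, tocopherol and phylloquinone. SIRB is the ferrochelatase that inserts iron into sirohydrochlorin. The product, sirohaem, branches off the tetrapyrrole pathway that also leads to chlorophyll and haem, and is the cofactor of nitrite reductase and sulfite reductase.

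In sucrose medium Z-ISO changed differently from AT1G74470 and SIRB, which could not be ordered by their change. Z-ISO was higher, and it was so with every scaling tried between arrays. The SIRB probe became brighter, but by less than most probes, so that its place among the probes of the array fell. The AT1G74470 probe, among the brightest of the table, had a ratio of 0.915 between its mean deposited intensities, and the size of its decrease, and whether it passed the test, depended on the scaling.

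Z-ISO had deposited intensities from 0.0775 to 0.231 in water, with a median of 0.177, and from 0.763 to 0.973 in sucrose medium, with a median of 0.871. The groups did not overlap, as for 63.6% of the probes tested in this direction, and the intensity was higher in sucrose medium in 6 of 6 same-numbered pairs. The mean rose from 0.161 ± 0.069 to 0.864 ± 0.085 (SD, n = 6 each), a ratio of 5.37. Most probes were also brighter in sucrose medium: the median of a water array was 0.171 to 0.188, and that of a sucrose medium array 0.422 to 0.459. Divided by the median of its own array, Z-ISO was at 0.90 ± 0.36 in water and 1.96 ± 0.13 in sucrose medium (SD, n = 6 each), a ratio of 2.18, without overlap, as for 15.9% of the probes tested in this direction.

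After quantile normalisation, which gives every array the same distribution of values, Z-ISO had a mean log2 value of -2.13 ± 0.67 in water, and of -0.70 ± 0.16 after sucrose medium (SD, n = 6 each). This is a 2.68-fold increase (log2 fold change 1.42 ± 0.26, SE; limma, adjusted p = 0.000408). Again the groups did not overlap, a pattern that 21.0% of the 2915 probes tested showed as higher and 23.3% as lower. A larger fold change in either direction was found for 8.23% of the probes tested.

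The spread of Z-ISO lay mainly in water, and there mainly between sets of 2 samples. The sets are samples 1 and 2, 3 and 4, and 5 and 6 of a group: in 12 of 12 samples the closest sample of the group, by Spearman correlation over all probes, was the other one of its set. The labels do not say what these sets are. Water replicates 1 and 2 had intensities of 0.0799 and 0.0775, replicates 3 and 4 of 0.157 and 0.197, and replicates 5 and 6 of 0.231 and 0.223. The first set was therefore the dimmest, while in sucrose medium the sets were closer, with means of 0.767, 0.871 and 0.956. On the normalised log2 scale the set means covered 1.39 in water and 0.34 in sucrose medium, and the largest gap within a set was 0.29 and 0.085. The size of the increase differed accordingly: within the 3 sets the log2 difference was 2.07, 1.18 and 1.02, and the ratio of mean deposited intensities 9.75, 4.92 and 4.22. All 3 were increases. The largest rests on dim water values, from arrays on which 15.0% (replicate 1) and 14.3% (replicate 2) of the probes were at 0. With 0.05 added to the intensities before log2, the log2 fold change of Z-ISO over all samples was 1.19 rather than 1.42.

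**Figure D1:**
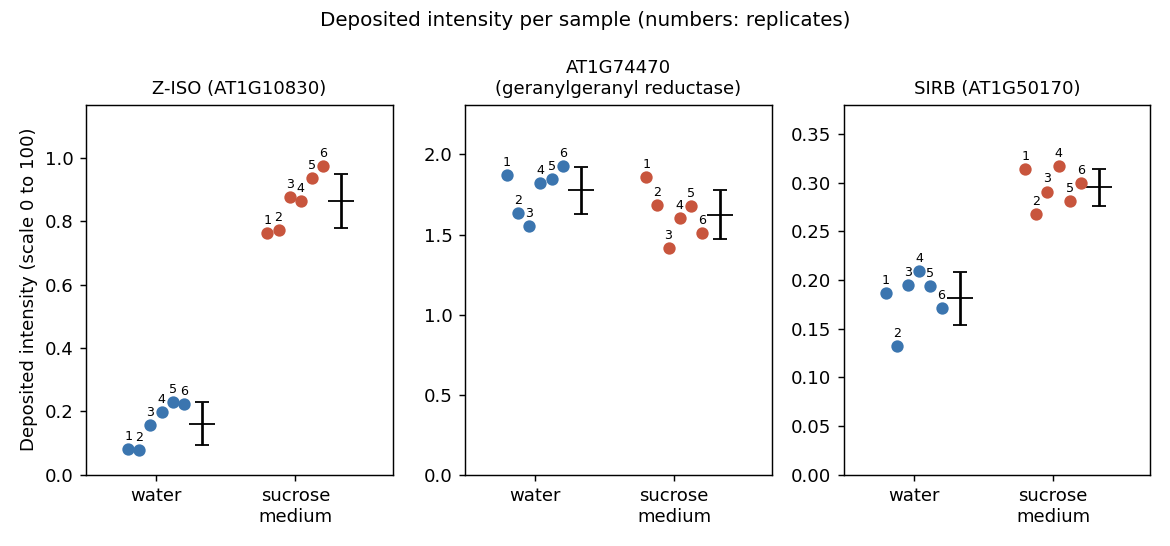
Deposited intensity (vertical axis, scale 0 to 100, starting at 0) of Z-ISO, AT1G74470 and SIRB in 6 water (blue) and 6 sucrose medium (red) samples; numbers are replicates, bars the mean and SD. Z-ISO rose from at most 0.231 to at least 0.763, SIRB from at most 0.209 to at least 0.268, and the 2 groups of AT1G74470 overlap.

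AT1G74470 was bright in both groups, with deposited intensities from 1.56 to 1.93 in water (median 1.83) and from 1.41 to 1.86 in sucrose medium (median 1.64). The groups overlapped. The means were 1.78 ± 0.15 and 1.62 ± 0.15 (SD, n = 6 each), a ratio of 0.915, and the value in sucrose medium was the lower one in 5 of 6 pairs. Divided by the median of its own array, AT1G74470 was at 10.1 ± 0.70 in water and 3.70 ± 0.42 in sucrose medium (SD, n = 6 each). On this measure the ratio was 0.368 and the groups did not overlap, as for 34.5% of the probes tested in this direction. Without scaling the log2 fold change of -0.13 ± 0.09 (SE) was not past the threshold of 0.05 on adjusted p-values (limma, adjusted p = 0.176).

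Against the other probes AT1G74470 was lower after quantile normalisation, with a mean log2 value of 0.88 ± 0.09 in water, and of 0.58 ± 0.18 after sucrose medium (SD, n = 6 each). The difference was a 1.24-fold decrease (log2 fold change -0.31 ± 0.09, SE; limma, adjusted p = 0.0099), in 6 of 6 pairs, though the groups overlapped. It is a small change for this table, in which 70.2% of the probes tested had a larger one in either direction. The sets did not contribute equally: the log2 difference was -0.095 in samples 1 and 2, -0.39 in samples 3 and 4 and -0.44 in samples 5 and 6. With the sets averaged to 3 values per group the gene was no longer past the threshold (adjusted p = 0.0848), nor with cyclic loess (log2 fold change -0.14, adjusted p = 0.140) or with a straight line that brings each array onto the mean water array (-0.011, adjusted p = 0.928). With median centring it was at -1.39 (adjusted p = 1.96e-08), a setting in which 41.5% of the probes tested passed as lower. Of the 5 scalings tried, the gene was past the threshold as lower with quantile normalisation and median centring only.

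SIRB had deposited intensities from 0.132 to 0.209 in water (median 0.190) and from 0.268 to 0.317 in sucrose medium (median 0.295). The groups did not overlap. The mean was 0.181 ± 0.027 in water and 0.295 ± 0.019 in sucrose medium (SD, n = 6 each), a ratio of 1.63. A rise without overlap in deposited intensity was seen for 63.6% of the probes tested. Divided by the median of its own array SIRB went the other way, from 1.03 ± 0.16 to 0.672 ± 0.048 (SD, n = 6 each), again without overlap, as 34.5% of the probes tested did in this direction.

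After quantile normalisation SIRB had a mean log2 value of -1.83 ± 0.23 in water, and of -2.42 ± 0.09 after sucrose medium (SD, n = 6 each). This is a 1.50-fold decrease relative to the other probes (log2 fold change -0.59 ± 0.11, SE; limma, adjusted p = 0.000367), in 6 of 6 pairs. It was without overlap, as for 23.3% of the probes tested in this direction. A larger fold change in either direction was found for 45.0% of the probes tested. Within the 3 sets the log2 difference was -0.38, -0.78 and -0.61. The direction is that of a scaled value: without scaling the log2 fold change was 0.72 (adjusted p = 3.91e-05), a setting with a median of 1.09 over the probes tested, 73.9% of which passed as higher. With median centring SIRB was at -0.54 and with cyclic loess at -0.66, both past the threshold. Of the probes tested, 41.5% passed as lower with median centring and 31.0% with loess. On the median centred log2 scale the groups of SIRB overlapped. With the straight line SIRB could not be fitted, since too few of its values stayed above 0.

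**Figure D2:**
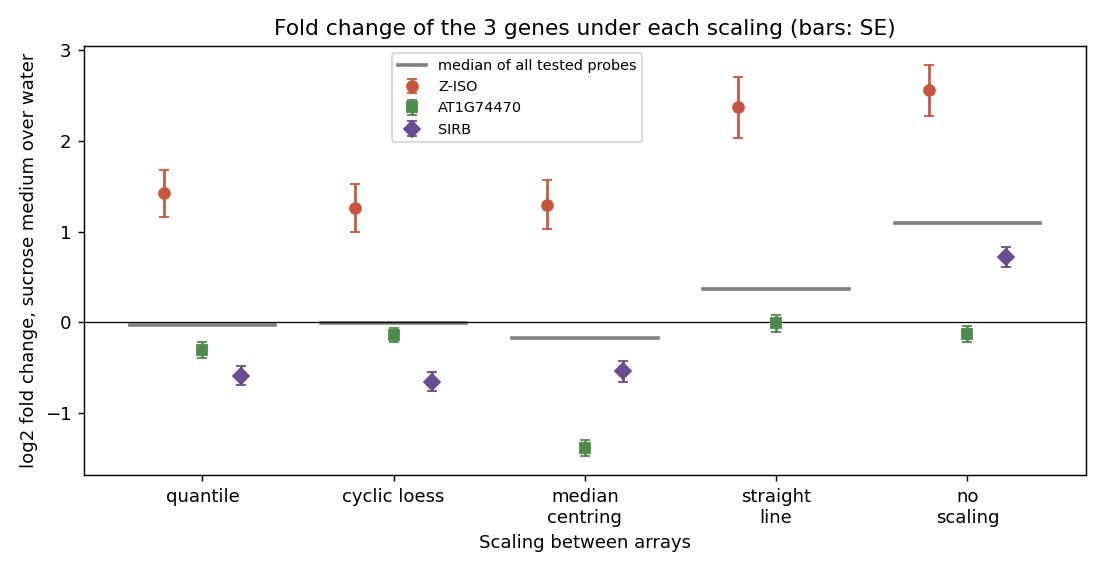
Log2 fold change of sucrose medium over water (vertical axis) of Z-ISO, AT1G74470 and SIRB under 5 scalings (horizontal axis), with SE bars; grey lines mark the median of all probes tested. Z-ISO lies above 0 and above the grey line throughout, SIRB lies at 0.72 without scaling and below 0 with quantile, loess and median scaling, and AT1G74470 ranges from -1.39 to -0.011.

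All 3 genes thus passed the threshold in the fit on quantile normalised values, 1 as higher and 2 as lower. In that fit 64.4% of the probes tested passed, 31.5% as higher and 32.9% as lower, so that passing is common in this table and does not set the 3 genes apart.

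The rank of a probe among the 3439 probes of its own array needs no scaling between arrays. Quantile normalisation also sets values by their order within the array, so the rank tests are no independent check of that fit. Z-ISO moved up in rank, from a percentile rank of 45.1 ± 14.1% in water to one of 77.0 ± 3.0% in sucrose medium (SD, n = 6 each). In water it ranged from 27.4% to 57.7% and in sucrose medium from 73.0% to 80.2%, without overlap, as for 19.8% of the probes tested in this direction. The difference of 31.9 percentage points had p = 0.00216 in an exact permutation test over samples (two-sided; adjusted over the 3 genes, 0.00325), the smallest p this design allows.

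SIRB moved down, from 50.9 ± 5.9% to 36.0 ± 2.2% (SD, n = 6 each), a mean difference of -14.9 percentage points (exact permutation test, p = 0.00216, adjusted 0.00325). Its water values ran from 41.2% to 57.4% and its sucrose values from 33.6% to 39.5%, without overlap, as for 23.9% of the probes tested in this direction. AT1G74470 stayed near the top, at 93.9 ± 0.43 and 92.1 ± 1.15% (SD, n = 6 each). It dropped by 1.81 percentage points, in 6 of 6 pairs and with overlapping groups (exact permutation test, p = 0.00649, adjusted 0.00649). With sets averaged to 3 values per group, the smallest p an exact test allows is 0.1, and all 3 genes reached it.

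**Figure D3:**
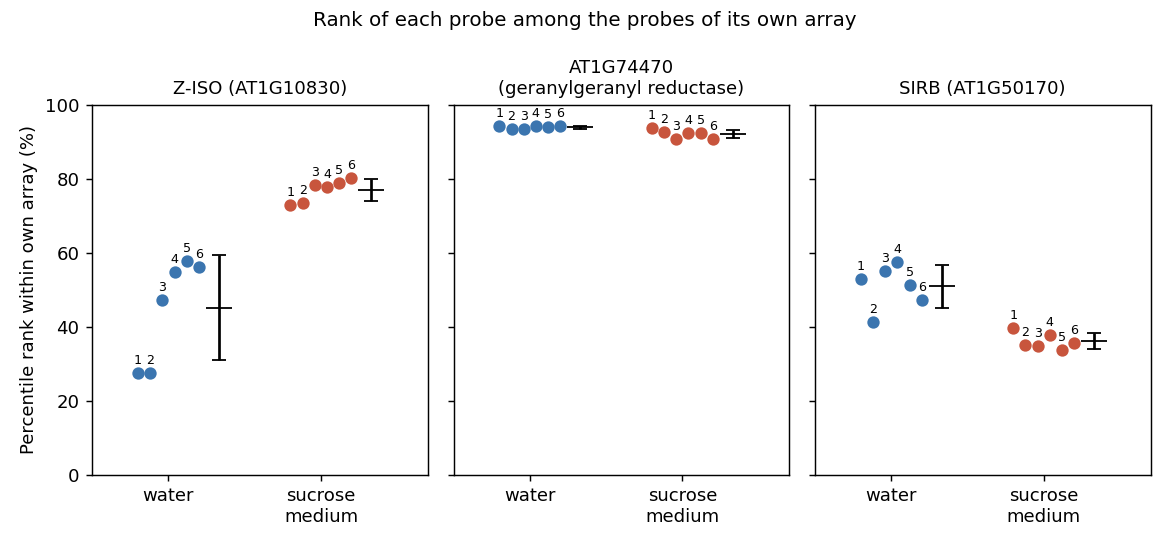
Percentile rank of each probe among the 3439 probes of its own array (vertical axis, 0 to 100%) in 6 water (blue) and 6 sucrose medium (red) samples; numbers are replicates, bars the mean and SD. Z-ISO moved up by 31.9 percentage points, SIRB by -14.9, and AT1G74470 stayed above 90%.

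How far a probe brightened in sucrose medium varied with its brightness, and the 3 genes sit at different places on that scale. When the probes tested were divided into 10 classes of equal size by mean log2 intensity, without scaling, the median log2 fold change was 1.43 in the class that holds SIRB, 1.33 in that of Z-ISO and -0.26 in the brightest, which holds AT1G74470. Z-ISO, with 2.56 ± 0.28 (SE), lay above the median of its class. SIRB, with 0.72 ± 0.11, lay below its own. AT1G74470, with -0.13 ± 0.09, lay slightly above. The median of its class was -1.52 with median centring and -0.19 with quantile normalisation, beside -1.39 and -0.31 for the gene. The part of probe brightness in the change of AT1G74470 was not tested.

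**Figure D4:**
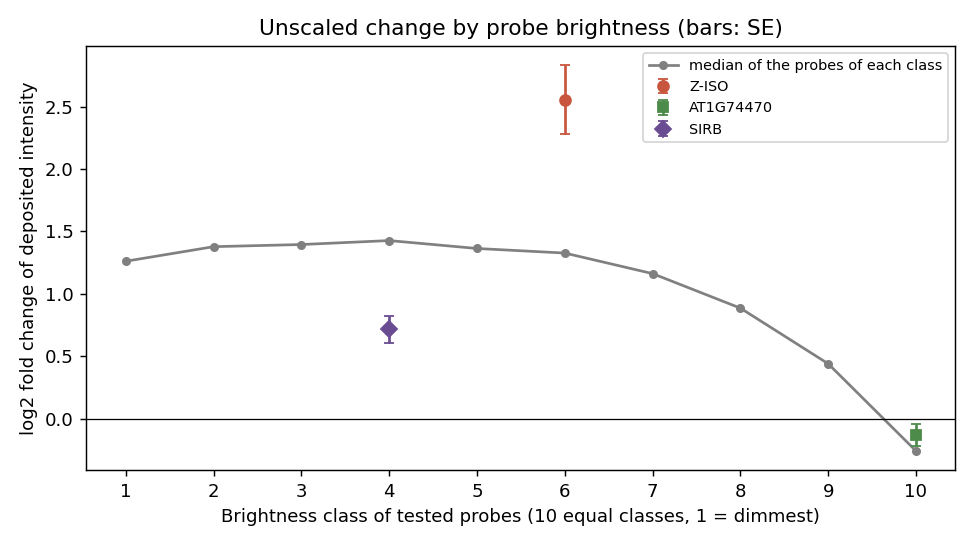
Log2 fold change of deposited intensity without scaling (vertical axis) against 10 equal classes of the probes tested by mean log2 intensity (horizontal axis, 1 dimmest, 10 brightest); the grey line joins the medians of the classes, and symbols with SE bars are the 3 genes. Z-ISO stands above the line at 2.56, SIRB below it at 0.72, and AT1G74470 near it at -0.13.

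Whether the genes changed by unequal amounts was tested on the within-sample difference of their log2 intensities, for the 3 possible pairs. Z-ISO rose relative to AT1G74470 by 1.73 on the log2 scale and relative to SIRB by 2.01 (exact permutation test over samples, two-sided, p = 0.00216 each, the smallest possible; adjusted over the 3 pairs, 0.00325). Without scaling, where a factor common to all probes of an array cancels, these differences were 2.69 and 1.84 (exact permutation test, adjusted p = 0.00216 each). A shift that varies with brightness does not cancel. The unscaled median of the brightness class was 1.33 for Z-ISO, 1.43 for SIRB and -0.26 for AT1G74470. The part of brightness in these differences was not tested. In both pairs, and with both scalings, the groups did not overlap. How often other pairs of probes separate in this way was not counted, so this does not set Z-ISO apart. Of single probes, 21.0% separated as higher and 23.3% as lower after quantile normalisation. The unequal change of Z-ISO against the other genes was in 1 direction with every scaling that could be computed.

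AT1G74470 and SIRB could not be ordered. With quantile normalisation SIRB fell by more than AT1G74470, by 0.28 on the log2 scale (exact permutation test, p = 0.0238, adjusted 0.0238), and with cyclic loess by 0.52. Blocked by replicate number, the difference of 0.28 had p = 0.0625 (exact sign-flip test over 6 pairs). Without scaling the difference was -0.85 (exact permutation test, adjusted p = 0.00216), that is, AT1G74470 was the lower one. Which of the 2 genes changed more in the negative direction is thus set by the scaling.

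**Figure D5:**
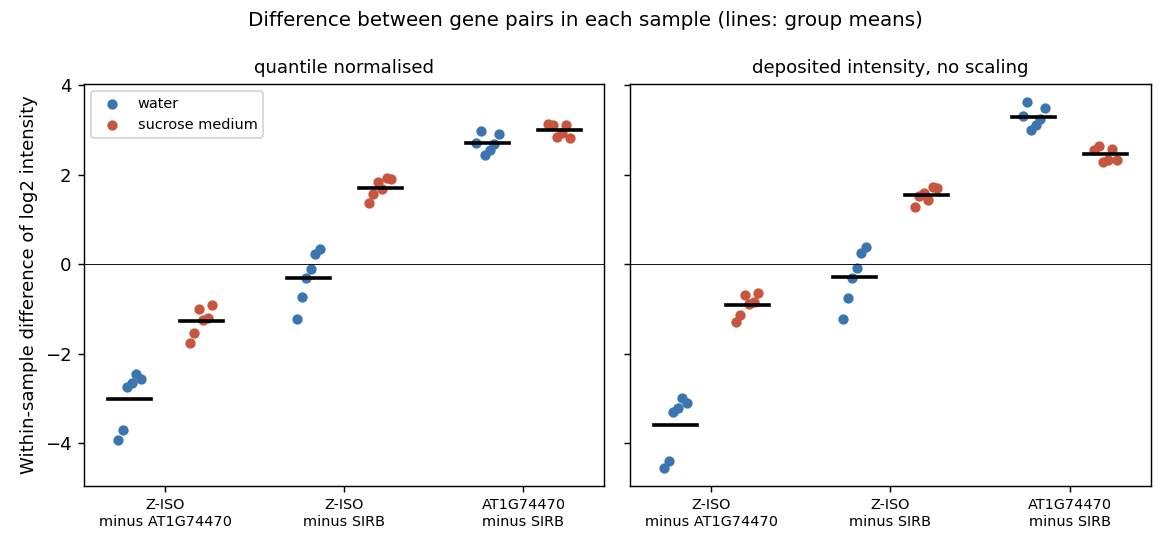
Difference of log2 intensity between 2 genes of the same sample (vertical axis) for the 3 pairs, in water (blue) and sucrose medium (red), with quantile normalised values on the left and deposited intensities on the right; short lines are group means over 6 samples. Both pairs with Z-ISO shift upwards in both panels, by 1.73 and 2.01 on the left, whereas AT1G74470 minus SIRB shifts by 0.28 on the left and by -0.85 on the right.

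Few other genes of these pathways can be read from the table. Of 99 loci in 9 lists, covering carotenoid synthesis and cleavage, the plastid isoprenoid pathway, the common tetrapyrrole steps, chlorophyll synthesis and breakdown, haem and bilins, sirohaem, and prenylquinones, 5 were on tested probes that name 1 gene, the 3 genes above included, and 7 only on probes with several genes. In 5 of the lists 0 genes were measured, among them the isoprenoid pathway and the common tetrapyrrole steps. Of the 5 genes 1 was higher, 3 were lower and 1 was not past the threshold, beside 64.4% of all probes tested that passed. Without scaling 3 of them were higher (Z-ISO, SIRB and CHLM) and 0 lower, beside 73.9% of all probes tested that passed as higher. After quantile normalisation the median log2 fold change of the 5 genes was -0.31, against -0.027 over all probes tested. That median is the value of AT1G74470 itself, whose change depended on the scaling, so it describes no tendency of the pathways.

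VTE6 (AT1G78620), the phytyl phosphate kinase that returns phytol from chlorophyll to tocopherol synthesis, uses the chain that geranylgeranyl reductase makes. Its deposited intensity ran from 0.728 to 1.21 in water (median 1.02) and from 0.973 to 1.38 in sucrose medium (median 1.12), with overlap. After quantile normalisation VTE6 was lower in 5 of 6 pairs, with a log2 fold change of -0.38 and an SE of 0.12 (limma, adjusted p = 0.0152, and 0.0476 with a block for the replicate number). Within the 3 sets the log2 difference was -0.56, -0.67 and 0.078, so samples 5 and 6 did not share the direction. With median centring VTE6 was at -1.08 (limma, adjusted p = 1.58e-05), a setting in which 41.5% of the probes tested passed as lower. There it was lower in 6 of 6 pairs and without overlap. Divided by the median of its own array VTE6 did not overlap either, as for 34.5% of the probes tested in this direction. With cyclic loess (-0.20, adjusted p = 0.215) and with averaged sets (adjusted p = 0.110) it was not past the threshold, and without scaling it was at 0.18 (adjusted p = 0.207).

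CHLM (AT4G25080), the methyltransferase that acts on magnesium protoporphyrin in chlorophyll synthesis, had intensities from 0.154 to 0.301 in water (median 0.201) and from 0.415 to 0.482 in sucrose medium (median 0.462). The intensities did not overlap, as for 63.6% of the probes tested in this direction, but relative to other probes the gene was not past the threshold, with a log2 fold change of -0.17 and an SE of 0.11 (limma, adjusted p = 0.221). Without scaling it was at 1.12 (adjusted p = 4.65e-06), close to the median of 1.09 over all probes.

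Among 565 other genes, each on a single-gene probe above 0 in all 12 samples, those with the pattern most like each of the 3 genes were found by the root mean square difference of normalised log2 intensity over the 12 samples, each gene centred on its own mean. Closest to Z-ISO were AT4G24090, AT2G20920 and AT2G37000, at 0.31, 0.32 and 0.34, against a median of 0.89 over the 565 genes. Their log2 fold changes were 1.09, 1.56 and 0.97, below and above that of Z-ISO. Closest to AT1G74470 were AT1G62780, AT4G08940 and AT2G18920, at 0.10, 0.12 and 0.12, with a median of 0.42 over all. Closest to SIRB were AT3G58610, whose ketol-acid reductoisomerase acts in the synthesis of branched-chain amino acids, AT4G08280 and AT4G09620, an mTERF family gene, at 0.11, 0.14 and 0.16, with a median of 0.50. SIRB and AT1G74470 lay 0.21 apart, which made AT1G74470 number 23 in closeness to SIRB, and Z-ISO lay 0.98 from AT1G74470 and 1.09 from SIRB. These distances describe the 12 samples, and the separation of the groups makes up part of them.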

How the data were processed

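The deposited table holds an intensity from 0 to 100 for each of 3439 probes in 12 samples; the sources used here do not say how the authors corrected background, scaled arrays or averaged spots. Zeros were treated as missing, intensities were log2 transformed and quantile normalised between arrays, and probes that kept 4 or more values in both groups, 2915 in all, were fitted with limma 3.58.1 in R 4.3.3 (lmFit, eBayes, two-sided, unblocked). P-values were adjusted by Benjamini-Hochberg over these probes, with a threshold of 0.05. The number of arrays limits the precision. Ranks and pairs of genes were compared with exact permutation tests (Python 3.11.15).

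Groups and replicate numbers came from the sample titles. Genes were named by the array's platform annotation (possibly outdated), updated by gene identifier to TAIR10.1: 692 probes carried 1 gene (691 matched a locus), 870 several and 1877 were not listed. A probe with several genes named none. Genes named are the 3 described, the measured genes of the pathway lists, and the 3 most like each by pattern. The genes, lists, sets and alternatives were chosen with earlier results of these data known.

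Deviations from the group mean correlated at 0.280 to 0.450 between same-numbered samples of the groups in all 6 pairs (across 2805 probes, which are not independent replicates), at 0.162 to 0.282 between other samples of the same set, and at -0.290 to 0.045 otherwise. For this reason replicate numbers were treated as pairs in the counts of pairs and in the replicate block, the labels being silent. The main fit and the permutation tests over samples did not use the pairs. The fit was tested on simulated data for sucrose medium against water, with 200 of 2915 probes changed. In these data 84% of the log2 changes of 1 and 52% of those of 0.5 were recovered, and 6 calls were false. The simulated noise was independent between samples, without sets, pairs or a shift between the groups common to most probes. These rates therefore do not cover errors that come from the sets or from the scaling. Alternatives covered the scaling, replicate and set blocks, averaged sets, zeros, values of 100, the filter on dim probes and leaving out each sample.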

Additional observations from a re-analysis of the deposited data

How the results depend on the processing

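Z-ISO stayed higher and past the threshold in all 23 alternatives of its fit, at 1.24 to 1.52 on the log2 scale when a sample was left out. Without scaling SIRB was at 0.72, VTE6 at 0.18 and CHLM at 1.12, and with the straight line VTE6 was at 0.14, all with the sign opposite to that after quantile normalisation; the median of all probes was then 1.09 and 0.36. AT1G74470 was not past the threshold without scaling (-0.13), with cyclic loess (-0.14), with the straight line (-0.011) or with averaged sets (-0.31). Of the 5 pathway genes, 4 passed in the main fit (1 higher and 3 lower), beside 1878 of 2915 probes tested. With cyclic loess 2 passed, beside 1794 of 2915 probes, and with averaged sets 2, beside 1374 of 2940. The straight line could fit 4 of the genes, of which 1 passed, beside 1359 of 2081 probes. Without scaling 3 passed as higher and 0 as lower, beside 73.9% of the probes tested that passed as higher. The difference in change between AT1G74470 and SIRB was -0.85 with median centring and without scaling, 0.19 with 0.05 added before log2 (exact permutation test, adjusted p = 0.0693), and 0.28 with the replicate block (exact, adjusted p = 0.0625). The block changed no other call. With averaged sets the pair differences of 1.73, 2.01 and 0.28 and the rank differences of 31.9, -1.81 and -14.9 percentage points cannot pass, since 3 against 3 values allow no exact p below 0.1. Leaving out any sample changed no call for the 3 genes or the pathway genes. Of all probes, 1794 to 1845 then passed, against 1878. The straight line gave no value for SIRB or for its pairs, and the causes of these differences were not tested.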
